A study of Mus musculus with 24 samples.

Results

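Of 24 mouse brain arrays labelled as hippocampus, 2 carried high signal for Tcf7l2 and Slc17a6, genes of thalamic neurons. They were replica 3 of the CM-414 group and replica 3 of the saline group, called CM-414 3 and saline 3 here. The 2 arrays were picked from the 11 arrays of those groups because their Tcf7l2 level exceeded 9 on the log2 scale. CM-414 3, the lower of the 2, stood at 10.05, and the next array below it, saline 2, stood at 7.18. The arrays were thus chosen by a measured value, so their differences from the other 9 arrays of both groups are given as a description, without a test.

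The study treated transgenic mice that model Alzheimer's disease and profiled hippocampal RNA, with 1 animal per Affymetrix Mouse Gene ST array. The groups were CM-414 (4 arrays), a combination of vorinostat and tadalafil (7 arrays), vorinostat (SAHA) alone (3 arrays), tadalafil alone (3 arrays) and saline, the vehicle group (7 arrays). Vorinostat inhibits histone deacetylases, tadalafil inhibits phosphodiesterase 5, and CM-414 is given in the sources used here by its code name only. All animals, controls included, carried a human APP transgene with the Swedish mutation. The labels give the background as B6.Cg-Tg(APPswe)E1-2Dbo/J and the age as 16 to 18 months, whereas the study describes the line as Tg2576, in which the prion promoter drives APP widely in the brain. Treatment lasted 4 weeks and was followed by 4 weeks of washout, with maze testing before the animals were killed. The study reports that its treated mice were female. There was no group without the transgene among these arrays, and litter, cage and dissection day are not given.

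The hippocampus is part of the telencephalon, and its excitatory neurons load glutamate into vesicles with VGLUT1, the product of Slc17a7. The thalamus lies directly beneath it, and its relay neurons use VGLUT2, the product of Slc17a6, and keep Tcf7l2, a transcription factor of the Wnt pathway, switched on in the adult. The habenula, pretectum, dorsal midbrain and hypothalamus adjoin the thalamus, and each has its own marker genes, from nicotinic receptor subunits to peptide hormones.

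Values are the authors' RMA log2 levels, so equal steps are equal ratios of signal. Tcf7l2 was 10.05 in CM-414 3, against 6.63, 6.22 and 7.10 in the other CM-414 arrays. It was 10.55 in saline 3, against a lowest, median and highest value of 6.17, 6.25 and 7.18 in the other 6 saline arrays. Slc17a6 showed the same split, with 11.40 in CM-414 3 against 8.14, 8.30 and 8.54 in the other CM-414 arrays. In saline 3 it was 11.53, against 7.51, 8.04 and 8.79 as lowest, median and highest of the other saline arrays. Tcf7l2 could not overlap between the 2 arrays and the other 9, because it chose them. Slc17a6 did not overlap either, and 10.5% of all genes lay above all 9 other arrays in both arrays. The 13 arrays of the other groups stayed between 5.84 and 6.91 for Tcf7l2 and between 7.17 and 8.32 for Slc17a6.

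Genes of hippocampal excitatory neurons had the opposite pattern. Slc17a7 was 8.73 in CM-414 3, against 11.68, 11.40 and 11.43 in the other CM-414 arrays. It was 8.67 in saline 3, against 11.38, 11.52 and 11.67 as lowest, median and highest of the other saline arrays. Neurod6, a transcription factor of cortical and hippocampal pyramidal neurons, was 5.60 in CM-414 3, against 9.51, 9.41 and 8.58 in the other CM-414 arrays. In saline 3 Neurod6 was 6.85, against 9.36, 9.54 and 9.78 in the other saline arrays. Both genes lay below the range of every other array, and Neurod6 in CM-414 3 was under that array's median over all probe sets, 5.90. Over all genes, 10.1% lay below all 9 other saline and CM-414 arrays in both arrays. In bulk tissue, fewer cells of a type and less RNA per cell cannot be told apart.

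**Figure D1:**
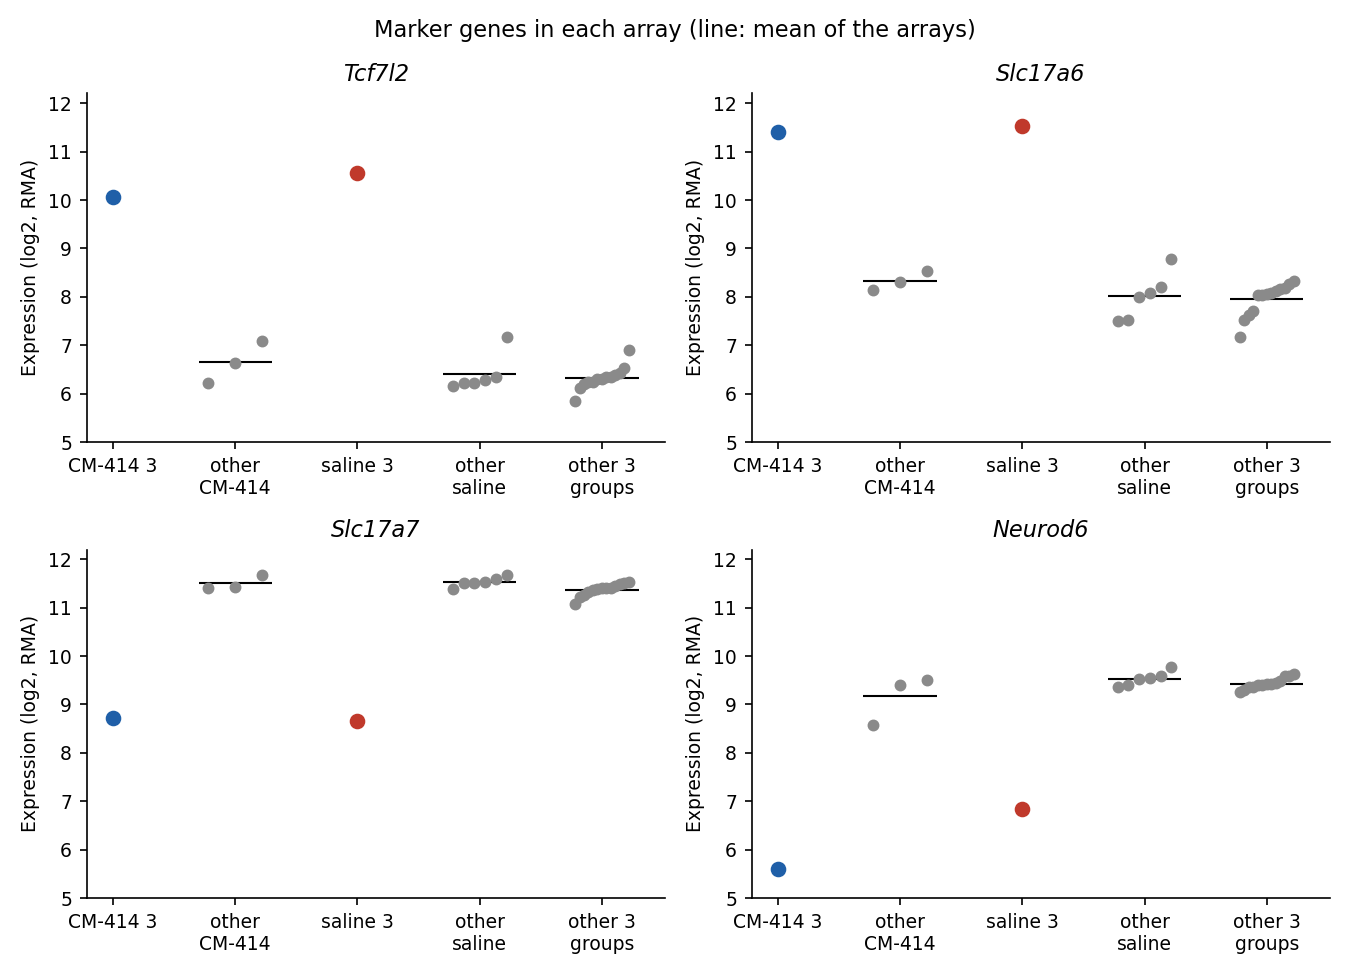
Log2 expression (RMA) of Tcf7l2, Slc17a6, Slc17a7 and Neurod6 in each of the 24 arrays, grouped as CM-414 3, other CM-414, saline 3, other saline and the arrays of the other 3 groups; each point is 1 array and each line the mean of a group of points. CM-414 3 and saline 3 sit above all others for Tcf7l2 (10.05 and 10.55) and below all others for Slc17a7 (8.73 and 8.67).

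Across 18964 protein-coding genes, each represented by its brightest probe set, a gene was counted when both arrays lay beyond all 9 others and the difference, averaged with the group as a block, was at least 1. By this count 190 genes (1.00%) were higher and 295 (1.56%) were lower in the 2 arrays. Because Tcf7l2 chose the arrays, these counts only describe how far they stood apart. After Tcf7l2 (3.80 ± 0.32, difference ± SE of the blocked fit) and Slc17a6 (3.31 ± 0.32), the next largest excess was that of Glra1, which encodes the alpha1 subunit of the glycine receptor of brainstem and spinal cord (3.23 ± 0.24). It was followed by Slitrk6, a transmembrane protein of synapse formation (3.11 ± 0.30), and by Tfap2b and Tfap2d, AP-2 transcription factors of the developing midbrain (2.87 ± 0.30 and 2.78 ± 0.51). Mab21l2 and Mab21l1, genes of the developing eye and midbrain roof, exceeded the other arrays by 2.78 ± 0.13 and 2.60 ± 0.30. Foxp2 (2.57 ± 0.43) and Shox2 (2.53 ± 0.25), transcription factors found in thalamic neurons among others, came next. The remaining genes of the leading 15 were Syt2, a calcium sensor of fast transmitter release (2.41 ± 0.24), Chrna3, a nicotinic receptor subunit (2.40 ± 0.28), Dgkk, a diacylglycerol kinase (2.31 ± 0.28), Unc13c, a vesicle priming factor (2.26 ± 0.39), and Plcb4, a phospholipase C (2.22 ± 0.19).

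The list of thalamic neuron markers was higher as a whole. All 16 measured members were above all 9 other arrays in both arrays, and 13 met the count, with a median difference of 1.41, against 0.00 over all genes. The 16 include Tcf7l2, which chose the arrays, and Slc17a6, and the list was made with earlier results of these data known. These values are therefore a description only. Over all genes, 1.00% met the count as higher. Without the limit on size, 10.5% of all genes lay above all 9 other arrays in both arrays and 10.1% lay below them. Prkcd, a protein kinase C found in many thalamic relay neurons, was 9.77 in CM-414 3, against 7.51, 7.65 and 7.19 in the other CM-414 arrays. In saline 3 it was 8.87, against 7.77, 7.98 and 8.77, so there it only just passed the highest of the other saline arrays, saline 2. Calb2 (calretinin) exceeded its own group by 1.91 in CM-414 3 and by 1.89 in saline 3, and Lef1, a partner of Tcf7l2 in the same family, by 1.43 and 1.35. Rora, an orphan nuclear receptor of sensory thalamus, did so by 0.95 in CM-414 3 and 1.30 in saline 3. Gbx2, Tnnt1 and Adarb1 were above all other arrays yet short of the count, with blocked differences under 1. Of 4 channel genes of relay neurons only Hcn4, a pacemaker channel subunit, met the count, with 1.02 in CM-414 3 and 1.04 in saline 3. Cacna1g, the T-type calcium channel of thalamic bursting, exceeded its group by 0.91 and 0.64.

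Among the genes that were lower, the largest difference was that of Fezf2, a transcription factor of deep-layer cortical projection neurons that is also on in the hippocampus (-3.15 ± 0.08). It was followed by Neurod6 (-3.10 ± 0.27), Ddn, a protein of dendrites and spines (-3.04 ± 0.20), and Ccn3, a matrix protein used here as a CA1 marker (-2.88 ± 0.23). Slc17a7 (-2.82 ± 0.09), Ptgs2, the inducible cyclooxygenase of forebrain excitatory neurons (-2.78 ± 0.16), and Ptk2b, a calcium-activated tyrosine kinase (-2.50 ± 0.14), were also among the leading 15. So were Iqgap2, a cytoskeletal scaffold (-2.78 ± 0.22), Prdm8, a transcriptional repressor (-2.76 ± 0.26), Slc9a4, a sodium and proton exchanger (-2.56 ± 0.13), and Neurod2, a relative of Neurod6 (-2.45 ± 0.18). The last of them were Crym, a thyroid hormone binding protein (-2.45 ± 0.10), Trpc6, a cation channel (-2.44 ± 0.24), Itpka, an inositol kinase of dendritic spines (-2.43 ± 0.12), and Nr4a3, an activity-induced nuclear receptor (-2.41 ± 0.11). The 7 CA1 markers were below all 9 other arrays in both arrays, 6 of them met the count, and the median difference was -1.19. Over all genes, 10.1% lay below all 9 in both arrays and 1.56% met the count as lower. Fibcd1, for example, was 7.37 in CM-414 3 and 7.59 in saline 3, against 8.52 to 8.96 in the other 9 arrays.

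Markers of the other hippocampal fields moved less evenly. Of 11 CA2 and CA3 genes only Rgs14 and Ccdc3 met the count as lower, against 1.56% of all genes. Rgs14, which restrains plasticity in CA2 neurons, differed by -1.58 in CM-414 3 and -1.80 in saline 3. Pcp4 and Coch went the other way in saline 3, by 1.02 each, and in CM-414 3 by 0.91 and 0.16. So did Amigo2, at 8.29 in CM-414 3 and 7.87 in saline 3, against 7.27 to 7.64 in the other 9 arrays. Pcp4, a calmodulin regulator, is a CA2 marker within the hippocampus and is also found in thalamus. Of 8 dentate granule markers only Dsp, encoding desmoplakin, met the count for both arrays together. Against their own groups, 2 were lower in CM-414 3 and 4 in saline 3, with list medians of -0.54 and -1.01. Over all genes, 1.65% were lower in this way in CM-414 3 and 1.93% in saline 3. The list mean was 6.82 in CM-414 3, within the 6.64 to 8.04 of the other CM-414 arrays. In saline 3 it was 6.71, against 7.36 to 7.68 in the other saline arrays. Prox1, the identity factor of these cells, was 0.48 below its group in CM-414 3 and 1.05 below in saline 3. The other CM-414 arrays spread widely for Prox1, between 7.50 (CM-414 4) and 9.45, and CM-414 3 lay inside them at 8.04. Saline 3 lay below all other saline arrays for Prox1, at 7.67 against 8.53 to 8.91.

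**Figure D2:**
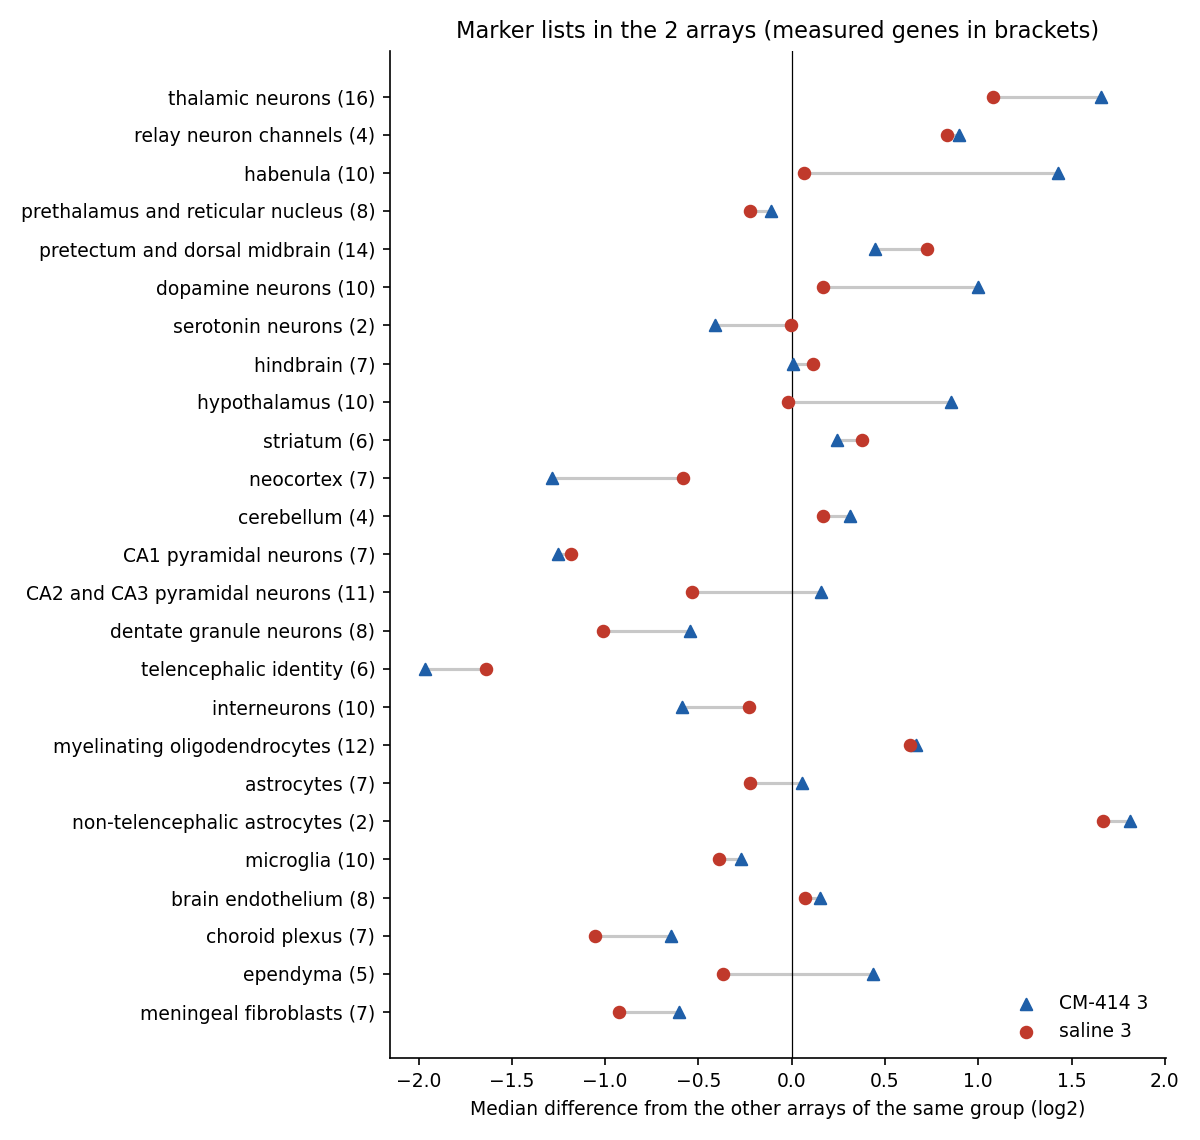
Median log2 difference of CM-414 3 (triangles) and saline 3 (circles) from the other arrays of the same group for 25 marker lists, with the number of measured genes in brackets. Thalamic markers lie at 1.66 in CM-414 3 and 1.08 in saline 3, CA1 markers at -1.25 and -1.19, and the habenula and hypothalamus lists at 1.43 and 0.85 in CM-414 3 and at 0.07 and -0.02 in saline 3.

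In each gene family some members met the count. It was met as higher and as lower by 1 each of 9 GABA-A receptor subunits and by 1 and 2 of 14 subunits of ionotropic glutamate receptors. As lower it was met by 1 of 3 T-type calcium channels and 2 of 12 activity-induced genes. As higher it was met by 2 of 3 TCF/LEF factors (Tcf7l2 among them), 2 of 4 cerebellins and 2 of 6 Irx factors. The count was also met as higher by 1 of 3 HCN channels, 1 of 4 Zic factors and 1 of 4 genes of netrin-G and its ligands. Over all genes, 1.00% were higher and 1.56% lower by this count. Slc17a6 was higher and Slc17a7 lower, while Slc17a8, the third vesicular glutamate transporter, differed by -0.15 in CM-414 3 and -0.45 in saline 3. Among the GABA-A receptor subunits, Gabra5, the extrasynaptic subunit of CA1, was lower by 1.14 in CM-414 3 and 1.24 in saline 3. Gabrg1 was higher by 1.16 and 1.09. Gabra2 was the one of these 9 subunits on which the arrays differed most, at 10.79 in CM-414 3 and 9.49 in saline 3. The NMDA receptor subunits Grin2a and Grin2b met the count as lower, with -1.57 and -1.32 in CM-414 3 and -1.44 and -1.26 in saline 3. Grin2d, the NMDA subunit of thalamus, midbrain and interneurons, met it as higher, with 1.09 and 0.96. Cacna1h, a second T-type channel, was lower by 1.10 in CM-414 3 and 1.07 in saline 3, in contrast to Cacna1g. Cbln2, a synaptic organizer, was higher by 1.72 and 1.92, and Irx1, a homeobox factor of diencephalon and midbrain, by 1.18 and 1.19.

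**Figure D3:**
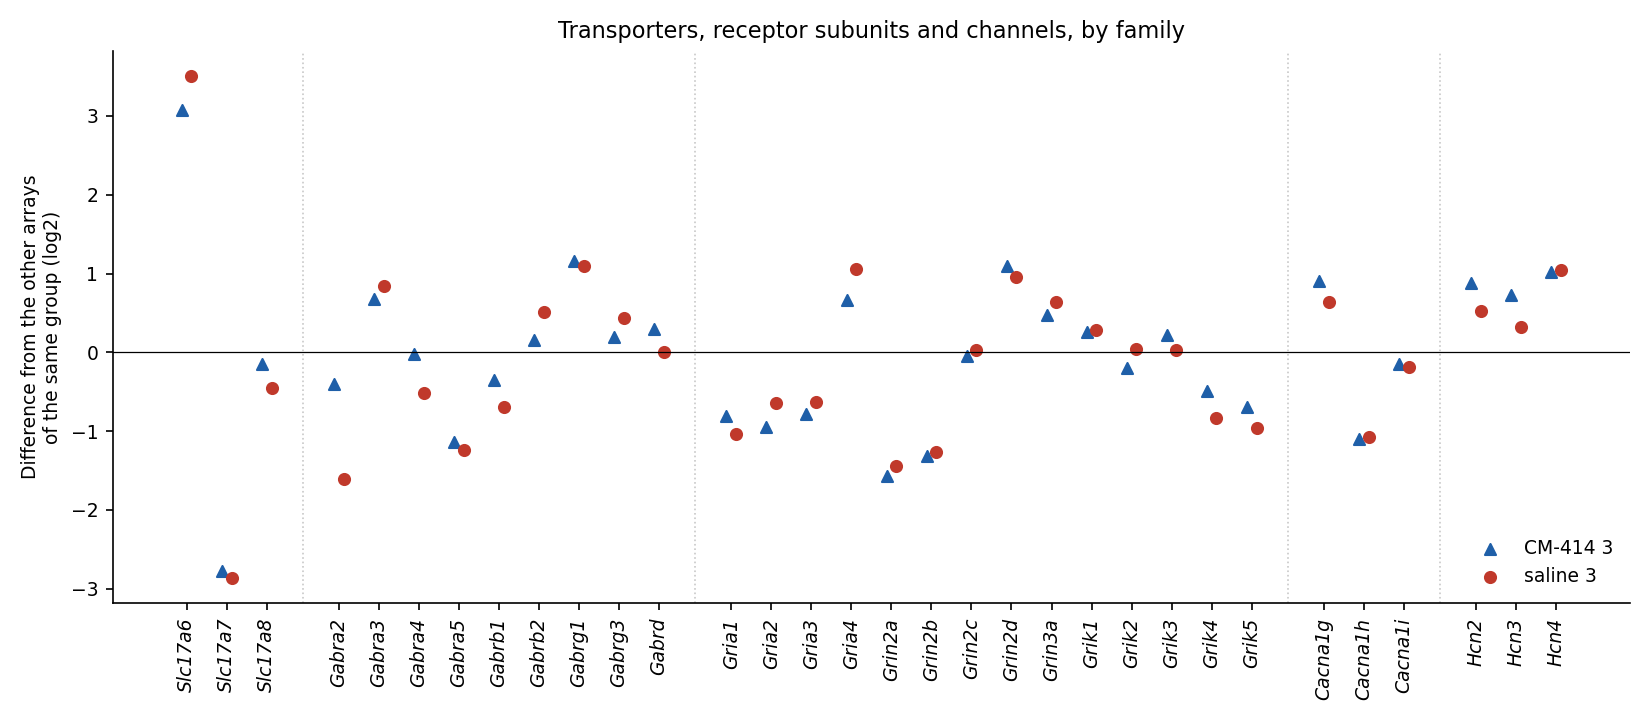
Log2 difference of CM-414 3 (triangles) and saline 3 (circles) from the mean of the other arrays of the same group for vesicular glutamate transporters, GABA-A receptor subunits, ionotropic glutamate receptor subunits, T-type calcium channels and HCN channels. Slc17a6 lies at 3.08 and 3.51 and Slc17a7 at -2.77 and -2.87, with Grin2a and Grin2b below 0 and Grin2d above 0 in both arrays.

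Cells other than excitatory neurons differed as well. Of 12 myelin genes, 10 were above all 9 other arrays in both arrays, against 10.5% of all genes, with a median difference of 0.64, although only Mag, a myelin adhesion protein, met the count. Pan-astrocyte markers had a median difference of -0.09. The astrocyte genes of diencephalon and brainstem, Slc6a11 (a GABA transporter) and Agt (angiotensinogen), were higher by 1.87 and 1.76 in CM-414 3 and by 1.95 and 1.39 in saline 3. Slc6a11 was 12.15 in CM-414 3 and 12.16 in saline 3, against 10.16 to 10.40 in the other 9 arrays. None of 10 microglial genes met the count, and 4 lay below all 9 other arrays in both arrays, with a median of -0.36. None of 8 endothelial genes lay beyond all 9, with a median of 0.11. The mean level of 7 choroid plexus genes was 7.10 in CM-414 3, within the 7.08 to 9.24 of the other CM-414 arrays, of which CM-414 2 had the 9.24. In saline 3 it was 6.64, against 6.97 to 8.87 in the other saline arrays. Kl, which encodes klotho, was the 1 member below all 9 others, at 6.78 in CM-414 3 and 6.30 in saline 3, against 7.33 to 10.43. Interneuron markers were mixed, since Pvalb was higher by 1.10 and 1.45 whereas Cck was lower by 1.08 and 1.23 and Vip by 1.16 and 1.03. Of 12 activity-induced genes, 7 lay below all 9 other arrays in both arrays, against 10.1% of all genes, among them Arc and Nr4a1, which met the count.

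Taken 1 at a time against their own groups, CM-414 3 had 257 genes higher (1.36%) and 312 lower (1.65%), and saline 3 had 227 higher (1.20%) and 366 lower (1.93%). The 133 higher genes in common were 51.8% of those of CM-414 3 and 58.6% of those of saline 3. The 227 lower genes in common were 72.8% and 62.0%.

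**Figure D4:**
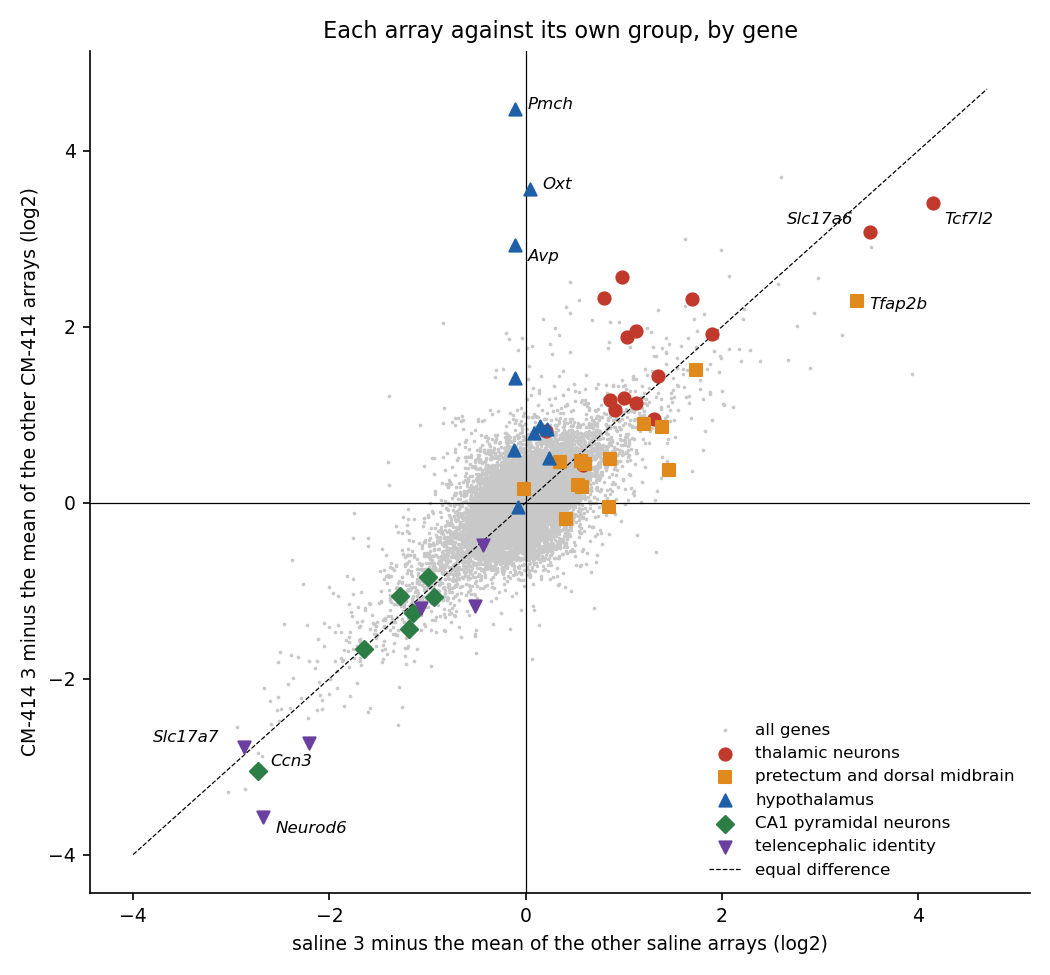
Each point is 1 of 18964 genes, plotted by its log2 difference from the other arrays of the same group in saline 3 (horizontal axis) and in CM-414 3 (vertical axis), with 5 marker lists coloured. Tcf7l2 (4.15 and 3.40) and Slc17a7 (-2.87 and -2.77) lie near the line of equal difference, whereas Pmch, Oxt and Avp lie near 0 in saline 3 and at 4.47, 3.56 and 2.93 in CM-414 3.

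By a difference of at least 1, both plainly and relative to each array's own group, 91 genes (0.480%) were higher in CM-414 3 than in saline 3 and 23 (0.121%) were lower. With only probe sets over 4 in at least 2 arrays of each group these counts were 57 and 14, and with all gene types kept 42 were lower. Members higher in CM-414 3 by this count were 5 of 10 in the habenula list, 4 of 10 in hypothalamus, 3 of 10 in dopamine neurons, and 3 of 8 in prethalamus and reticular nucleus, where 1 was lower. None of the 14 pretectal and dorsal midbrain markers met it, and the median of CM-414 3 minus saline 3, each relative to its own group, was -0.35. Peptide hormones of the hypothalamus led the higher genes. Pmch, the precursor of melanin-concentrating hormone of the lateral hypothalamus, was 8.92 in CM-414 3, 4.21, 4.38 and 4.76 in the other CM-414 arrays, and 4.29 in saline 3. Oxt, encoding oxytocin, was 9.85 in CM-414 3, against 6.20, 5.96 and 6.68 in the other CM-414 arrays and 6.19 in saline 3. Avp, encoding vasopressin, was 10.61 in CM-414 3, against 7.21, 6.85 and 8.99 in the other CM-414 arrays and 6.61 in saline 3. Hcrt, encoding orexin, was 6.87 in CM-414 3, against 5.73, 5.24 and 5.39 in the other CM-414 arrays and 5.21 in saline 3. For all of these saline 3 lay within the range of the other saline arrays, and CM-414 3 lay above every other array of the series. Avp was also high in CM-414 4, at 8.99, against 6.40 to 7.21 in the 22 arrays other than CM-414 3 and CM-414 4.

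The proximal promoters of these 4 peptide genes are shown because the genes moved together in 1 array, as the 250 bases before the start site in RefSeq (build GRCm38.p6). They are Pmch at chr10:88090822-88091071 on the plus strand, Oxt at chr2:130575919-130576168 on the plus strand, Avp at chr2:130582589-130582838 on the minus strand and Hcrt at chr11:100762932-100763181 on the minus strand. Capitals mark the letters TATAAA, which help to position RNA polymerase II, and their variant CATAAA. Capitals also mark the half-site of nuclear receptors, AGGTCA, which reads on the other strand as TGACCT.
Pmch: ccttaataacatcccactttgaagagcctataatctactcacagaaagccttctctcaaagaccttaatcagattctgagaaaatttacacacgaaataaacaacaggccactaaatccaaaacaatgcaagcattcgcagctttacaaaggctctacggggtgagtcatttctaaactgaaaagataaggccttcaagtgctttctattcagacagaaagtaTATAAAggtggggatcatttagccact
Oxt: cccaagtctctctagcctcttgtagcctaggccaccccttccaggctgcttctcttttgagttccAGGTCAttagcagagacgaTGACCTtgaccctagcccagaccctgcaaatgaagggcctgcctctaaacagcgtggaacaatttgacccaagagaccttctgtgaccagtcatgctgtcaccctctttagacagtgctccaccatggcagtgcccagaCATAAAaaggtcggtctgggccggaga
Avp: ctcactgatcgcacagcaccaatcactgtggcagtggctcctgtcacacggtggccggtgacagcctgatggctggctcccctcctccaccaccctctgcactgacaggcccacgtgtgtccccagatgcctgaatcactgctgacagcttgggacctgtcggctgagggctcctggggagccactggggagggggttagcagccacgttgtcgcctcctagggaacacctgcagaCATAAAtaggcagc
Hcrt: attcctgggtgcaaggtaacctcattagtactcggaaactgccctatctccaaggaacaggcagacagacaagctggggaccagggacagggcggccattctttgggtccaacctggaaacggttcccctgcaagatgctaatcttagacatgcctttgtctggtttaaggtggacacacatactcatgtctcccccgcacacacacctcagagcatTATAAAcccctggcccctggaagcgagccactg
Each window held TATAAA or CATAAA once, 27 bases before the start site in Pmch and Oxt, 14 bases in Avp and 33 bases in Hcrt. Oxt alone held the half-site, as AGGTCA 185 bases and TGACCT 166 bases before the start. The motifs were chosen after the sequences were read. On either strand TATAAA was in 19.5% of the 77 windows of genes higher in CM-414 3 than in saline 3 and in 9.33% of the 150 windows of genes higher in both arrays, against 11.9% of all 15359 windows. CATAAA was in 9.39% of all windows, and AGGTCA in 12.1%. The TCF/LEF core ATCAAAG, the letters that Tcf7l2 prefers, was in 0.00% of the windows of genes higher in both arrays and in 2.85% of all windows. A match describes letters only.

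Of the 10 hypothalamic markers, Pmch, Oxt, Avp and Hcrt met the count in CM-414 3 and none did in saline 3, with medians of 0.85 and -0.02. By that count, 1.36% of all genes were higher in CM-414 3 and 1.20% in saline 3. Sim1, a transcription factor of oxytocin and vasopressin neurons, was 6.72 in CM-414 3 and 5.68 in saline 3, and Ghrh, the growth hormone releasing hormone of the arcuate nucleus, was 5.73 and 5.76. Trh, the thyrotropin-releasing hormone, was 8.99 in CM-414 3, against 6.13, 6.70 and 8.56 in the other CM-414 arrays and 5.90 in saline 3.

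The habenula list had medians of 1.43 in CM-414 3 and 0.07 in saline 3. Tac2, the neurokinin B precursor of the medial habenula, was 9.13 in CM-414 3, against 7.01, 6.56 and 7.71 in the other CM-414 arrays. In saline 3 Tac2 was 6.07, below the 6.85 to 6.99 of the other saline arrays. Gng8, a G protein subunit of the same cells, was 7.41 in CM-414 3 and 5.42 in saline 3, and Chrnb4, a nicotinic receptor subunit, was 7.54 and 6.46. Pou4f1, the habenular POU factor, was high in both arrays, with 6.77 in CM-414 3 and 6.70 in saline 3, against 5.10 to 5.48 in the other 9. Gpr151, an orphan receptor confined largely to the habenula, was 5.10 and 4.43 and did not leave the range of the other 9 arrays, 4.03 to 5.11.

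Among the dopamine neuron genes, Th, the rate-limiting enzyme of dopamine synthesis, was 8.77 in CM-414 3, against 6.25, 6.03 and 6.51 in the other CM-414 arrays and 6.47 in saline 3. Slc6a3, the dopamine transporter, was 7.75 in CM-414 3 and 6.25 in saline 3, and Slc18a2, the vesicular monoamine transporter, was 7.49 and 5.62. Pitx3, the homeobox factor of midbrain dopamine neurons, was 5.69 and 5.78, within the 5.58 to 5.98 of the other 9 arrays. Tph2 and Slc6a4, genes of serotonin neurons, did not meet a count in either array.

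The prethalamus and reticular nucleus list had medians of -0.11 in CM-414 3 and -0.23 in saline 3, and its members split. Isl1, a LIM homeobox factor, was 6.59 in CM-414 3 and 5.44 in saline 3, against 5.03 to 5.73 in the other 9 arrays, and Ecel1, a neuronal endopeptidase, was 8.56 and 6.78, against 6.23 to 7.54. Dlx5, a homeobox factor of GABA neurons, was 7.17 in CM-414 3, within the 7.08 to 7.64 of the other 9 arrays, and 5.64 in saline 3, below them. Meis2, a TALE homeobox factor, was 8.60 in CM-414 3 and 9.63 in saline 3.

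Saline 3 exceeded CM-414 3 in a shorter set of genes, led by Tfap2d at 6.76 in CM-414 3 and 8.75 in saline 3. The other arrays had Tfap2d between 4.52 and 6.00, so both arrays were above them. Mab21l1 was 7.93 in CM-414 3 and 8.99 in saline 3, and Tpbg, a Wnt-related surface glycoprotein, was 7.30 and 8.51. Tfap2b stood at 6.97 and 7.96, against 4.18 to 5.03 in the other 9 arrays. Of the 14 pretectal and dorsal midbrain markers, 5 met the count in saline 3 (Tfap2b, Lhx5, Otx2, Barhl1 and Barhl2) and 2 in CM-414 3 (Tfap2b and Lhx5). Over all genes, 1.20% were higher by the count in saline 3 and 1.36% in CM-414 3. Of the leading 10 genes in this direction, Olfr799, Olfr1437, Vmn2r5 and Vmn1r116 are olfactory or vomeronasal receptors with levels under 5 in both arrays. Hindbrain Hox genes were flat, with differences between -0.37 and 0.22 over Hoxb2, Hoxb3, Hoxa5, Hoxb5 and Hoxc4, whereas Glra1 of the same list was high in both arrays. Slc6a5, also of that list, was 6.22 in CM-414 3 and 6.60 in saline 3. It lay above the 5.37 to 6.09 of the other 9 arrays but short of the count.

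**Figure D5:**
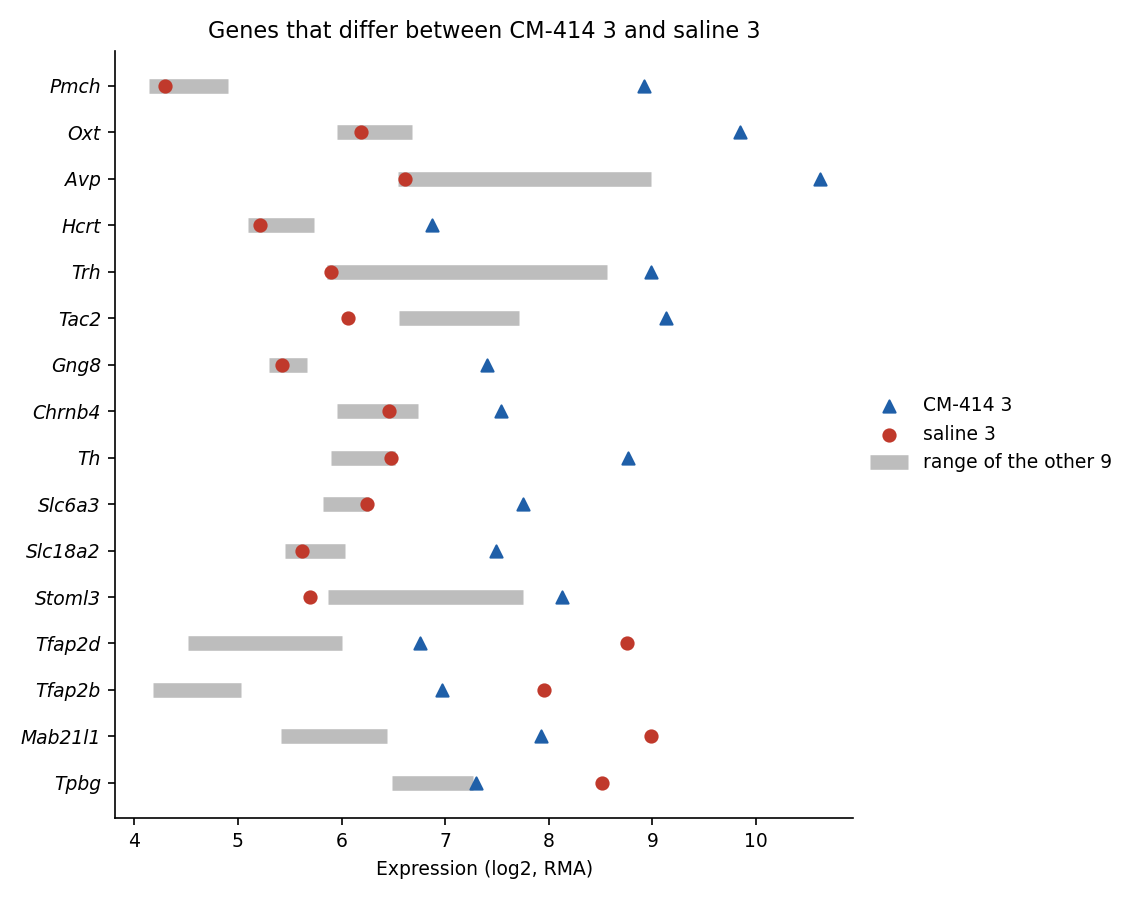
Log2 expression (RMA) of 16 genes in CM-414 3 (triangles) and saline 3 (circles), with the range of the other 9 CM-414 and saline arrays as grey bars. Pmch, Oxt and Avp reach 8.92, 9.85 and 10.61 in CM-414 3, and Tfap2d and Mab21l1 reach 8.75 and 8.99 in saline 3.

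The labels give no batch, but the values of Snord13, a small nucleolar RNA, split the series. It was between 10.35 and 11.46 in 12 arrays and between 7.27 and 8.46 in the other 12. CM-414 3 belonged to the first of these sets and saline 3 to the second, so differences between them cannot be told apart from the set by this pair alone. With each array set against the other 11 arrays of its own set instead, 180 of the 190 higher and 270 of the 295 lower genes still met the count, as did 82 of the 91 and 21 of the 23 genes that parted the 2 arrays. Array medians over all probe sets ran from 5.90 to 5.98.

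Some of the same genes leaned the same way in CM-414 4. It was the highest of the other 9 arrays for 94 of the 190 higher genes (49.5%, against 15.1% of all genes) and the lowest for 139 of the 295 lower genes (47.1%, against 18.8%). Foxp2 was 7.12 in CM-414 4, against 5.46 and 5.56 in CM-414 1 and CM-414 2, and Neurod6 was 8.58, against 9.51 and 9.41. Drd2, the D2 dopamine receptor, was 7.49 there, against 6.24 and 6.18, and Tcf7l2 was 7.10. Other genes did not lean that way. The thalamic markers Prkcd (7.19) and Plekhg1 (6.97) and the myelin gene Mag (8.38) were the lowest of the 9 in CM-414 4. The mean of the striatal markers was 7.80 in CM-414 4, against 7.44 in CM-414 3 and 7.17 in saline 3. Drd1, the D1 dopamine receptor, was 7.41 in CM-414 4, 6.31 in CM-414 3 and 5.67 in saline 3. Without CM-414 4 the counts were 221 higher and 338 lower genes. Saline 2 had the highest Tcf7l2 of the arrays below the limit. It was the highest of the 9 for 37 of the 190 genes (19.5%, against 13.4% of all genes). For 18 of the 295 it was the lowest (6.10%, against 8.91%).

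Whether Tcf7l2 and 6 thalamic or hippocampal genes vary together was examined in the 13 arrays of the 3 groups that the choice did not use. Tcf7l2 and Slc17a6 had Pearson's r = 0.51 (permutation p = 0.0818, adjusted over 6 genes 0.436) and Spearman's rho = 0.48 (permutation p = 0.0972, adjusted 0.583). Without the 2 arrays farthest from the median of Tcf7l2, r was 0.34, and within the 9 arrays of the lower Snord13 set it was 0.57. None of the other genes (Prkcd, Rora, Ntng1, Slc17a7 and Neurod6) passed either, with r between -0.11 and 0.43. The higher set held 4 of these arrays, too few for a value, and the 13 arrays came from 3 treatments.

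The treatment comparison into which both arrays fall, CM-414 against saline, was tested with limma over 17092 genes in a fit of all 24 arrays. A single gene, 0.00585% of those tested, passed an adjusted p of 0.05, and 2155 had an unadjusted p under 0.05. It was Ep400, a chromatin remodelling ATPase, with a difference of 0.74 ± 0.11 (SE; limma, adjusted p = 0.00614). The next smallest p-values were those of Pnck (0.57 ± 0.10), Magee2 (0.46 ± 0.08), Prr23a3 (-0.67 ± 0.13) and Plekha1 (-0.36 ± 0.07), each with a limma adjusted p of 0.0579. Ep400 was 10.60 in CM-414 3 and 10.21 to 10.71 in the other CM-414 arrays, against 9.33 to 9.99 in the saline arrays other than saline 3, which lay just above them. Without CM-414 3 and saline 3 the difference was 0.75 (limma, adjusted p = 0.0303), again the single call, and 2382 genes had an unadjusted p under 0.05. All 4 CM-414 arrays were in the higher Snord13 set, as were 4 of the 7 saline arrays. With the set as a block Ep400 differed by 0.72 (limma, adjusted p = 0.0387). No gene passed with that block without both arrays (limma, 1963 genes at an unadjusted p under 0.05), in a fit of the compared groups alone (1418 genes) or with averaged probe sets (2129 genes). No gene passed in limma without CM-414 3 alone, without CM-414 4 alone, or without those and saline 3 together, with 2198, 1644 and 1392 genes at an unadjusted p under 0.05. Leaving out single arrays otherwise gave 323 calls without CM-414 2, 51 without saline 3, 4 without CM-414 1, 3 without saline 2 or saline 5, and 1 without any of saline 1, 4, 6 and 7.

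Since the arrays were chosen by Tcf7l2, smaller errors without them are fixed by that choice for the genes that set them apart, and 2 are given as a description. Slc17a6 differed by 0.31 ± 0.23 without them and by 0.58 ± 0.58 with them (SE; limma, adjusted p = 0.591 and 0.734). Slc17a7 differed by -0.03 ± 0.07 and by -0.31 ± 0.47 (SE; limma, adjusted p = 0.913 and 0.84).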

How the data were processed

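Total RNA of single mouse hippocampi was hybridised to Affymetrix Mouse Gene ST arrays. The deposited table holds log2 values that the authors made with RMA (version not given in the sources used here), for 24 arrays and 41345 probe sets; scanner files were not used here. Each column was matched to its array by its label. Gene names came from the platform annotation, which pairs 23525 probe sets with 1 gene, 1816 with more than 1 and 16004 with no gene. Gene types and promoter windows came from RefSeq (GRCm38.p6). Only probe sets of 1 protein-coding gene were kept, and the probe set with the highest mean stood for a gene, which left 18964 genes.

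The 2 arrays were those among saline and CM-414 with Tcf7l2 over 9. Each was compared with the other arrays of its group, and both with the group as a block, with Python 3.11.15, numpy 2.4.6, scipy 1.17.1 and pandas 2.3.3. For CM-414 against saline, limma 3.58.1 (R 4.3.3) was fitted to all 24 arrays and 5 groups. As in the study's methods, a probe set entered that fit if 2 or more arrays of every group exceeded a log2 level of 4, a linear signal of 16. P-values were adjusted by Benjamini-Hochberg here. Correlations used 100000 permutations, two-sided. The scripts were tested on simulated data. Precision is limited by how many arrays there are, and p-values measure only the spread between animals whose litter and cage are not given.

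Genes to name were drawn from the members of 36 lists (263 of 292 genes measured), the 15 largest differences each way for both arrays, the 10 each way for single arrays and between them, and the 5 smallest p for CM-414 against saline. Members and lists were chosen with earlier results of these data known. Ghrh, Sim1 and other single members were picked as examples after their values were seen. Alternatives were the floor on low values, the mean of a gene's probe sets, all gene types, centring on the array median, the Snord13 set as baseline or block, a 1.5-fold limit, the replicate number as a block, the compared groups alone, and each array left out. Of these, 2 were added after seeing the data: the set block without both arrays, and CM-414 4 left out with them.

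The labels' replicate numbers do not come with a shared litter, batch or day, and deviations of same-numbered arrays correlated at 0.11, 0.19, 0.73 and 0.05 for numbers 1 to 4, so the numbers were not taken as pairs.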

Additional observations from a re-analysis of the deposited data

Results flagged for a closer look

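For 25 marker lists the mean log2 level of the measured members was compared between the arrays of a group, and an array was noted where it lay far from the nearest other array relative to the whole range. Over 50 pairs of list and group, an array stood apart in this way 21 times, and in 18 of these it was CM-414 3 or saline 3. Chance alone gives about 1 in 20 groups. The arrays were chosen for such values, so this describes how far they lie from their groups.

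In CM-414 3 the mean was 9.13 for thalamic neurons (7.46 in the nearest other CM-414 array), 7.32 for habenula, 6.38 for pretectum and dorsal midbrain, 7.21 for dopamine neurons, 5.65 for hindbrain and 7.06 for CA1 pyramidal neurons, the last of these below the other arrays. In saline 3 it was 8.81 for thalamic neurons (7.83 in the nearest other saline array), 8.04 for relay neuron channels, 6.19 for habenula, 6.72 for pretectum and dorsal midbrain, 5.86 for hindbrain and 10.46 for non-telencephalic astrocytes. Saline 3 lay below the other saline arrays at 7.59 for neocortex, 7.31 for CA1 pyramidal neurons, 7.59 for CA2 and CA3 pyramidal neurons, 6.71 for dentate granule neurons, 7.00 for telencephalic identity and 7.59 for microglia. The neocortex list was split. Of its 7 measured members, 4 lay below all 9 other arrays in both arrays, against 10.1% of all genes. Another 2, Rorb and Cux2, lay above all 9, against 10.5%.

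The other arrays that stood apart were CM-414 2, with a mean of 9.24 for choroid plexus genes against 7.14 in the nearest CM-414 array, saline 2, with 5.29 for serotonin neurons, and saline 4, with 5.75 for hypothalamus. Ttr, the transthyretin of the choroid plexus, was 13.81 in CM-414 2 and 11.07 to 11.42 in the other CM-414 arrays.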

How the results depend on the processing

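The counts of genes apart in both arrays, in each array and between them moved by less than 1.5 times when a gene's probe sets were averaged, arrays were centred on their median or the Snord13 set served as baseline. Keeping only probe sets over the floor left 57 higher and 14 lower genes between the arrays, and keeping all gene types gave 42 lower. A 1.5-fold limit gave 580 higher and 748 lower genes in both arrays, 966 and 980 in CM-414 3, 717 and 1008 in saline 3, and 510 and 262 between them. Leaving out 1 other array at a time gave 183 to 221 higher and 289 to 338 lower genes in both arrays, 241 to 307 and 296 to 361 in CM-414 3, 220 to 238 and 362 to 381 in saline 3, and 81 to 95 and 22 to 27 between them.

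For CM-414 against saline, leaving out 1 array gave 0 to 323 calls by limma, with 323 without CM-414 2 and 51 without saline 3. The fit gave 0 calls for the compared groups alone (limma, 1418 genes at an unadjusted p under 0.05), 0 with averaged probe sets (2129 genes), 0 with the Snord13 set as a block without both arrays (1963 genes), and 0 without CM-414 3, saline 3 and CM-414 4 (1392 genes). The replicate number as a block gave 275 calls. Same-numbered arrays correlated at 0.05 to 0.73, the 0.73 being that of CM-414 3 with saline 3, which were both chosen by Tcf7l2. The labels do not say whether same-numbered samples share anything besides the number. The cause of these moves was not tested.

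Among the correlations with Tcf7l2, that of Rora was -0.0525 in the lower Snord13 set, against 0.06 in all 13 arrays. Without the 2 arrays farthest from the median, Prkcd stood at 0.087, Slc17a7 at -0.0191 and Neurod6 at -0.22, against -0.11, 0.43 and 0.23. Only 3 other arrays define the CM-414 baseline, and CM-414 4 leans towards the 2 arrays in some of the genes counted.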

Other observations

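Further genes differed by degree between the 2 arrays. Zic1, a zinc finger factor of diencephalon and cerebellum, was 10.37 in CM-414 3 and 9.14 in saline 3, against 7.62 to 8.82 in the other 9 arrays. The synaptic organizer Cbln1 was 8.51 in CM-414 3 and 7.09 in saline 3, its relative Cbln4 exceeded its own group by 1.23 in CM-414 3 and 0.38 in saline 3, and Cbln2 was 9.40 in both. The less common GABA-A receptor subunits of hypothalamus and brainstem, Gabrq and Gabre, were 8.05 and 7.52 in CM-414 3 and 6.18 and 5.52 in saline 3. Gabrq was also 6.23 in CM-414 4, against 4.11 to 4.78 in the other 8 arrays. Stoml3, a stomatin-like protein, was 8.13 in CM-414 3 and 5.69 in saline 3, and the other 9 arrays filled the gap between them, from 5.87 to 7.75.

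Ependymal genes had a median difference from their groups of 0.43 in CM-414 3 and -0.37 in saline 3, and none of the 5 met the count in either array, while Tmem212 met that between them. Of 7 genes of meningeal fibroblasts, the matrix genes Dcn and Ogn met the count as lower in both arrays, against 1.56% of all genes. Dcn was 8.03 in CM-414 3 and 7.90 in saline 3, against 8.84 to 10.26 in the other 9 arrays. Of the striatal markers Drd2 alone met the count as higher, against 1.00% of all genes. It was 7.83 in CM-414 3 and 7.52 in saline 3, and CM-414 4 stood at 7.49.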
